A study of Arabidopsis thaliana with 30 samples.

Results

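The probe sets described here were higher in leaves of the catalase mutant cat2 than in wild-type Col0 after 2 days of air in short days, and by less than 0.5 on the log2 scale, if at all, after 4 days. They were chosen from measured values. For each probe set, d is the mean log2 signal of the 3 cat2 arrays minus the mean of the 3 Col0 arrays of the same condition. Probe sets with d of at least 1 at 2 days, and d under 0.5 both at 4 days and in plants kept at high CO2, were taken. Of 22746 probe sets without controls, 126 met these thresholds. CML37 and GSTU22 were left out by name, which leaves 124 members. In the annotation used here 51 members have exactly 1 gene (51 distinct genes), 2 have several genes and 71 are not listed. Members without a single gene are given by their probe set identifier.

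CAT2 encodes the main catalase of photosynthetic leaf cells. It sits in peroxisomes and removes the hydrogen peroxide that photorespiration releases when Rubisco takes up oxygen in place of CO2. High CO2 suppresses photorespiration, so cat2 plants can be raised under it with little peroxide load, and a move to ordinary air then starts the load at a known moment. Day length is known to shape what follows in this mutant.

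All samples were rosette leaves of soil-grown Arabidopsis thaliana, hybridised to Affymetrix ATH1 arrays, with 2 genotypes in 5 conditions and 3 arrays for each combination, 30 arrays in all. The mutant carries the allele that the series' design text calls cat2-1, the only catalase allele in the series. Both genotypes grew for 5 weeks at 3000 ppm CO2 with 8 h of light and 16 h of dark. The hCO2 group was sampled there. The SD2 and SD4 groups then spent 2 or 4 days in air (400 ppm) with days still 8 h long, and the LD2 and LD4 groups spent 2 or 4 days in air with days of 16 h light. Leaves were taken 7 h into the light, and each array held RNA of leaves pooled over plants. The 3 arrays of a group were treated as separate biological samples, though the labels do not say how separately the pools were grown. CAT2 is not listed with a probe set of its own, so its own transcript was not used to check the genotype labels. Of 26 leaf, phloem, guard cell, epidermis, root and senescence markers, 3 had a probe set of their own. The group means of RCA, the activase of Rubisco in mesophyll, lay between 13.94 and 14.15 (log2), and those of FAMA of guard cells between 6.59 and 7.33. Those of GAMMA-VPE lay between 11.08 and 12.38. The marker list placed GAMMA-VPE under phloem, but whether it is particular to phloem was not checked, so no phloem content is read from it. The other 23 markers were not measured alone. In whole-leaf RNA, fewer cells of a type and less RNA per cell cannot be told apart.

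The median log2 signal of the 124 members summarises their course on each array. At hCO2 it was 7.13, 6.72 and 7.18 on the Col0 arrays and 6.72, 6.67 and 7.03 on the cat2 arrays. At SD2 it was 6.46, 6.44 and 6.36 in Col0 and 8.01, 7.75 and 7.83 in cat2. All 3 cat2 arrays of SD2 were above every other array of the series, and the 3 Col0 arrays of SD2 were among the lowest. At SD4 it was 7.05, 6.85 and 6.36 in Col0 and 7.28, 6.49 and 6.74 in cat2, so the genotypes overlapped again. In long days it was 7.37, 7.26 and 7.01 in Col0 and 7.01, 6.84 and 7.04 in cat2 at LD2, and 6.70, 7.08 and 7.46 in Col0 and 6.96, 7.04 and 7.25 in cat2 at LD4. Neither long-day group of cat2 came near its SD2 level.

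**Figure D1:**
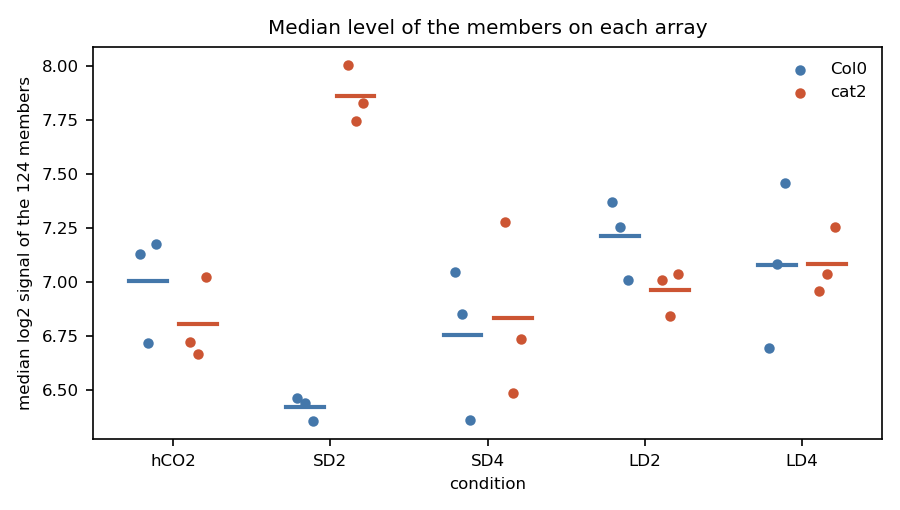
Median log2 signal of the 124 members (vertical axis) on each array, by condition (horizontal axis), with Col0 in blue and cat2 in orange. Points are arrays and bars are the means of 3 arrays. The cat2 arrays of SD2 lie between 7.75 and 8.01 and the Col0 arrays of SD2 between 6.36 and 6.46.

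The values that chose the members are a description and were not tested. The median d over the members was −0.14 at hCO2 (range −1.76 to 0.48), 1.26 at SD2 (range 1.00 to 2.61) and 0.19 at SD4 (range −0.81 to 0.49). At SD2 the arrays of the genotypes did not overlap, with cat2 higher, in 123 members, where this held for 14.9% of all probe sets. The exception was AT3G53980. At SD4 the arrays did not overlap with cat2 higher in 13 members (7.58% of all probe sets), AT5G61560, AT4G15420 and BGLU28 among them. At hCO2 cat2 was lower without overlap in 17 members (3.74% of all probe sets) and higher in 2, AT4G32190 and AT3G15450 (5.99% of all probe sets). These 3 conditions entered the choice, and nothing is read from the shares. Just inside the SD2 threshold lay 258651_at, 258904_at and 263136_at (d of 1.00 each), and just outside it lay AT2G23270, 256522_at and 254120_at (d of 1.00, below the threshold in the further decimals). Just inside the SD4 threshold lay AT4G15420, 258921_at and 253535_at (0.49 each), and outside AT4G31860 (0.50), B120 (0.51) and AT1G28190 (0.51). At hCO2 the nearest inside were 257137_at (0.40), SBT1.3 (0.47) and AT3G15450 (0.48), and the nearest outside BGLU33 (0.58), AT3G54400 (0.67) and AT5G48490 (0.67). Leaving out 1 array of SD2, SD4 or hCO2 at a time gave between 94 and 195 probe sets, with the lowest count without cat2 SD2 replicate 1 and the highest without cat2 SD2 replicate 3.

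A difference between genotypes at SD2 can come from a higher cat2, a lower Col0 or both, and the members divided along this line. From hCO2 to SD2 the median change was +1.21 in cat2 (range −0.97 to 3.35) and −0.54 in Col0 (range −2.08 to 1.02), where the median over all probe sets was −0.03 and 0.03. The thresholds at SD2 and hCO2 force the change in cat2 to exceed that in Col0 by more than 0.5. A gain in cat2 or a drop in Col0 was thus favoured by the choice, and the medians and counts here are a description. With a change of 0.5 on the log2 scale as the mark, 58 members were higher at SD2 than at hCO2 in cat2 with no matching drop in Col0. A further 26 were higher in cat2 and also lower in Col0, and 40 were lower in Col0 with no such gain in cat2. Without Col0 hCO2 replicate 2 these counts were 49, 35 and 38, with 2 members in none of them, and without cat2 hCO2 replicate 3 they were 58, 27 and 39. From SD2 to SD4 all 124 members were lower in cat2 (median −0.84), 90 of them by 0.5 or more. In Col0, 81 were higher at SD4 than at SD2 (median 0.24), 36 of them by 0.5 or more. The choice of members favours such a convergence between day 2 and day 4, so it is a description.

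**Figure D2:**
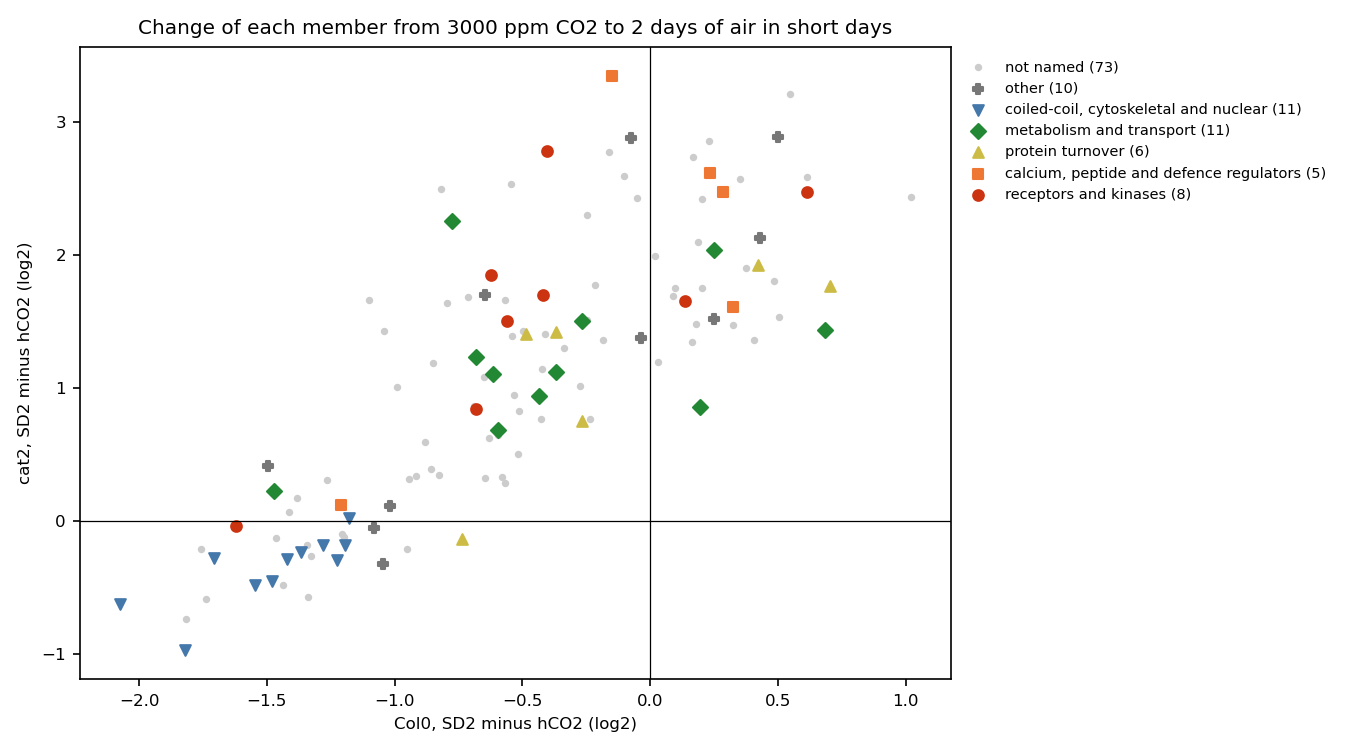
Change in mean log2 signal from hCO2 to SD2 for each of the 124 members, in Col0 (horizontal axis) and in cat2 (vertical axis). Symbols mark the roles of the 51 single-gene members, and small grey points are the 73 others. The 11 coiled-coil, cytoskeletal and nuclear genes lie at −1.18 or below in Col0 and at 0.02 or below in cat2, while the receptors and kinases reach 2.79 in cat2.

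The single-gene members were sorted by role after their values had been seen, so the groups below describe these genes and carry no test. The first group is made of 8 receptors and kinases, proteins that sense molecules at the cell surface or inside the cell and pass the signal on. From hCO2 to SD2 their median change was 1.68 in cat2 and −0.49 in Col0, and their d at SD2 ran from 1.23 to 2.14. AT1G66090 encodes a protein of the TIR-NBS type, a class known from disease resistance. In Col0, AT1G66090 read (log2) 6.17, 6.08 and 6.95 at hCO2, 6.43, 6.05 and 5.51 at SD2, 5.84, 6.72 and 5.20 at SD4, 7.75, 7.34 and 6.69 at LD2 and 6.28, 5.86 and 6.37 at LD4. The values in cat2 were 5.22, 5.31 and 5.54 at hCO2, 8.20, 7.96 and 8.28 at SD2, 6.09, 6.05 and 5.53 at SD4, 5.56, 6.10 and 5.94 at LD2 and 6.50, 5.45 and 6.07 at LD4. The cat2 arrays of SD2 were the highest of this gene, and the cat2 arrays of hCO2 were below all Col0 arrays of hCO2. The differences of AT1G66090 were 2.14 at SD2 and −0.03 at SD4, and in long days −1.40 and −0.17 (SE 0.33 each).

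AT5G61560 encodes a kinase with a U-box, a domain of ubiquitin ligases. In Col0, AT5G61560 read (log2) 4.16, 4.24 and 4.68 at hCO2, 3.90, 4.03 and 3.89 at SD2, 4.23, 4.20 and 4.03 at SD4, 4.78, 4.64 and 4.44 at LD2 and 4.16, 4.57 and 5.16 at LD4. In cat2 it read 4.18, 4.04 and 4.25 at hCO2, 6.06, 6.10 and 5.40 at SD2, 4.89, 4.27 and 4.50 at SD4, 4.41, 4.35 and 4.30 at LD2 and 4.68, 4.72 and 4.81 at LD4. Its cat2 arrays were highest at SD2. At SD4 the lowest of them (4.27) was barely above the highest of Col0 (4.23), at a low signal. Over all arrays, 12 of the 124 members had a mean log2 signal below 5, AT5G61560 among them. AT5G61560 thus had d of 1.91 at SD2, 0.40 at SD4, −0.27 at LD2 and 0.11 at LD4, each with an SE of 0.20. AT5G46080 encodes another protein kinase. In Col0, AT5G46080 read (log2) 5.26, 4.57 and 5.16 at hCO2, 5.46, 5.85 and 5.53 at SD2, 5.22, 5.61 and 4.93 at SD4, 6.21, 5.76 and 5.77 at LD2 and 5.96, 5.51 and 5.34 at LD4. In cat2 it read 4.75, 4.72 and 5.11 at hCO2, 7.60, 7.05 and 7.37 at SD2, 5.83, 5.49 and 5.26 at SD4, 5.04, 5.38 and 5.87 at LD2 and 5.47, 5.13 and 5.21 at LD4. Col0 too was higher at SD2 than at hCO2, by 0.61, against 2.48 in cat2. For AT5G46080, d was 1.73 at SD2, 0.28 at SD4, −0.48 at LD2 and −0.33 at LD4 (SE 0.23 each).

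AT1G74360 encodes a leucine-rich repeat receptor-like kinase, also called NILR1, known from the response to nematode molecules. In Col0, AT1G74360 read (log2) 6.42, 5.64 and 6.41 at hCO2, 5.58, 5.73 and 5.28 at SD2, 5.94, 6.15 and 4.80 at SD4, 6.73, 6.10 and 6.02 at LD2 and 5.39, 5.59 and 6.47 at LD4. Its cat2 arrays read 5.19, 4.88 and 5.76 at hCO2, 7.69, 6.69 and 7.00 at SD2, 5.95, 5.49 and 4.96 at SD4, 5.80, 5.82 and 6.26 at LD2 and 5.30, 5.62 and 5.84 at LD4. Its cat2 arrays of SD2 were above all Col0 arrays of SD2, but 1 Col0 array of LD2 lay between them. The differences of AT1G74360 were 1.60 at SD2 and −0.17 at SD4, and in long days −0.32 and −0.23 (SE 0.35 each). AT1G53430 encodes a related receptor-like kinase, NILR2. In Col0, AT1G53430 read (log2) 8.38, 7.88 and 8.04 at hCO2, 6.53, 6.27 and 6.64 at SD2, 7.15, 6.76 and 6.86 at SD4, 7.60, 7.31 and 7.53 at LD2 and 7.29, 7.81 and 7.78 at LD4. The values in cat2 were 8.08, 7.94 and 8.20 at hCO2, 8.23, 7.97 and 7.92 at SD2, 7.69, 6.81 and 7.32 at SD4, 7.64, 7.19 and 7.22 at LD2 and 7.63, 7.88 and 8.04 at LD4. Here the cat2 arrays of SD2 sat at the level of hCO2, and the Col0 arrays of SD2 were the ones that stood apart, below every other array of the gene. AT1G53430 thus had d of 1.56 at SD2, 0.35 at SD4, −0.13 at LD2 and 0.23 at LD4, each with an SE of 0.19.

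The 3 other members of this group were given by their differences. AT5G25930, a leucine-rich repeat receptor-like kinase, had d of 1.39 at SD2 and −0.94 at LD2. SD1-29, the lectin receptor kinase LORE that senses bacterial fatty acid metabolites, had d of 1.23 at SD2 and −0.08 at LD2. AT4G25390, a protein kinase, had d of 1.26 at SD2 and −0.20 at LD2.

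A set of 5 members acts in calcium signalling, peptide signalling or defence regulation. Their median change from hCO2 to SD2 was 2.48 in cat2 and 0.24 in Col0. AT3G01830 encodes the calmodulin-like calcium sensor CML40. In Col0, AT3G01830 read (log2) 6.23, 5.75 and 7.15 at hCO2, 6.38, 6.94 and 5.38 at SD2, 5.58, 7.24 and 4.48 at SD4, 8.08, 7.70 and 6.94 at LD2 and 6.32, 5.54 and 6.44 at LD4. Its cat2 arrays read 3.98, 3.93 and 5.96 at hCO2, 8.03, 7.82 and 8.08 at SD2, 6.31, 6.32 and 5.46 at SD4, 5.59, 6.12 and 6.33 at LD2 and 5.78, 4.79 and 5.49 at LD4. In cat2 it had the widest swing of all members between hCO2 and SD2, 3.35 on the log2 scale, and in Col0 the highest array of LD2 reached the same level. For AT3G01830, d was 1.74 at SD2, 0.26 at SD4, −1.57 at LD2 and −0.74 at LD4 (SE 0.57 each). AT3G02840 encodes a protein with armadillo repeats. In Col0, AT3G02840 read (log2) 4.31, 4.11 and 4.99 at hCO2, 4.88, 5.05 and 4.18 at SD2, 4.21, 5.00 and 4.07 at SD4, 5.69, 5.36 and 4.63 at LD2 and 4.46, 4.17 and 4.54 at LD4. In cat2 it read 4.02, 3.92 and 4.17 at hCO2, 6.45, 6.59 and 6.94 at SD2, 4.72, 4.20 and 4.42 at SD4, 4.38, 4.59 and 4.57 at LD2 and 4.40, 4.17 and 4.45 at LD4. Away from SD2 its cat2 arrays stayed below 5, and at LD2 the Col0 arrays were all above those of cat2. The differences of AT3G02840 were 1.95 at SD2 and 0.02 at SD4, and in long days −0.72 and −0.05 (SE 0.26 each).

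AT4G37290 encodes the precursor of PIP2, a secreted peptide that amplifies immune responses. In Col0, AT4G37290 read (log2) 5.02, 5.15 and 5.64 at hCO2, 5.78, 5.83 and 5.06 at SD2, 4.79, 5.22 and 5.06 at SD4, 5.84, 5.70 and 5.61 at LD2 and 5.88, 4.28 and 5.29 at LD4. The values in cat2 were 4.51, 4.74 and 5.05 at hCO2, 7.13, 6.66 and 7.93 at SD2, 5.26, 4.57 and 4.94 at SD4, 5.17, 6.09 and 6.17 at LD2 and 5.74, 4.95 and 5.39 at LD4. The 3 cat2 arrays of SD2 were the highest of the gene, and at SD4 and in long days the genotypes overlapped. AT4G37290 thus had d of 1.69 at SD2, −0.10 at SD4, 0.09 at LD2 and 0.21 at LD4, each with an SE of 0.34. Of the 2 other members, AT2G22880 (a VQ-motif protein, a family that binds WRKY factors) had d of 1.20 at SD2 and −0.02 at LD2. AT2G38800, a calmodulin-binding protein, had d of 1.43 at SD2, with a change from hCO2 of −1.21 in Col0 and 0.12 in cat2.

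Of the 6 members in protein turnover, 5 were higher in cat2 at SD2 than at hCO2 by 0.5 or more with no matching drop in Col0. AT4G15420 belongs to the UFD1 family, known for handing ubiquitinated proteins to degradation. In Col0, AT4G15420 read (log2) 7.43, 7.46 and 7.83 at hCO2, 7.15, 7.06 and 7.41 at SD2, 7.45, 7.59 and 7.27 at SD4, 8.04, 7.59 and 7.69 at LD2 and 7.80, 7.77 and 8.02 at LD4. The values in cat2 were 7.23, 7.53 and 7.47 at hCO2, 9.02, 9.03 and 8.45 at SD2, 8.18, 7.62 and 7.95 at SD4, 7.86, 7.25 and 7.69 at LD2 and 7.57, 7.68 and 7.78 at LD4. Its cat2 arrays remained just above those of Col0 at SD4, which places it at the edge of the choice. For AT4G15420, d was 1.63 at SD2, 0.49 at SD4, −0.17 at LD2 and −0.19 at LD4 (SE 0.17 each). AT1G17860, a Kunitz-type protease inhibitor, had d of 1.33 at SD2, 0.37 at SD4 and 0.43 at LD2, and its arrays did not overlap in any of these 3 conditions. SBT3.5 (a subtilisin-like protease), AT1G26800 (a RING-type ubiquitin ligase) and AT4G30490 (an AFG1-like ATPase) had d of 1.46, 1.04 and 1.06 at SD2. SBT1.3, another subtilisin-like protease, differed from these in that Col0 changed by −0.74 from hCO2 to SD2 and cat2 by −0.14.

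The 11 members in metabolism and transport had a median change from hCO2 to SD2 of 1.13 in cat2 and −0.43 in Col0. AT1G26380 encodes an oxidase of the berberine bridge type, a family that makes defence compounds and inactivates cell wall fragments. In Col0, AT1G26380 read (log2) 6.50, 5.95 and 7.49 at hCO2, 5.80, 6.85 and 4.97 at SD2, 5.73, 7.05 and 4.84 at SD4, 7.75, 7.31 and 7.00 at LD2 and 6.01, 5.88 and 6.83 at LD4. In cat2 it read 5.23, 5.13 and 6.06 at hCO2, 7.85, 7.27 and 8.09 at SD2, 6.25, 5.67 and 4.58 at SD4, 6.62, 7.44 and 7.40 at LD2 and 6.74, 5.92 and 6.55 at LD4. Arrays of the same group lay far apart, as at SD4 in Col0, and SD2 was the one condition where the genotypes did not overlap. The differences of AT1G26380 were 1.86 at SD2 and −0.37 at SD4, and in long days −0.20 and 0.16 (SE 0.52 each). BGLU28, a beta-glucosidase known to be induced by sulfur shortage, read 3.75, 3.74 and 3.78 in Col0 and 5.50, 5.71 and 4.06 in cat2 at SD2. At LD2 it read 5.37, 4.15 and 4.43 in Col0 and 6.35, 4.78 and 7.48 in cat2. The spread within cat2 at LD2 was as wide as the difference between genotypes there, 1.56 (SE 0.49, limma adjusted p = 0.142).

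ATSPS4F, a sucrose phosphate synthase of the sucrose-making pathway, was the exception in metabolism. It read 8.41, 8.32 and 8.22 in Col0 and 9.62, 9.22 and 9.62 in cat2 at SD2, against 9.72, 9.74 and 9.91 in Col0 and 9.08, 8.72 and 9.98 in cat2 at hCO2. The Col0 arrays of SD2 were the lowest of the gene, with a change from hCO2 of −1.47 in Col0 and 0.23 in cat2. The others ranged from 1.04 to 1.29 in d at SD2. They were AT2G32030 (an acyltransferase), AT5G54860 (a transporter of the folate and biopterin type), AT4G02940 (ALKBH10B, which removes methyl groups from messenger RNA), AT3G54150 (a methyltransferase), AT3G15450 (a transcript known to be induced by sugar starvation), AT3G53980 (a lipid transfer protein), AT1G60730 (an aldo-keto reductase) and AT3G25610 (the membrane lipid flippase ALA10).

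The 11 coiled-coil, cytoskeletal and nuclear genes differed in pattern from these groups. In all 11, Col0 was lower at SD2 than at hCO2 by more than 0.5 (median −1.42, range −2.08 to −1.18), and in none of them was cat2 higher by 0.5 (median −0.29, range −0.97 to 0.02). AT5G16730, AT1G65010 and AT4G32190 encode long coiled-coil proteins, and NET1D and NET4B encode proteins that bind actin filaments. AT5G55660 encodes a DEK-type chromatin protein, AT1G15940 a PDS5-like protein of chromosome cohesion, AT5G40340 a PWWP-domain protein, AT5G16680 a PHD finger protein and AT1G17360 a protein like one that interacts with COP1. AT4G33740 completes the group.

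AT1G65010 shows their course. In Col0, AT1G65010 read (log2) 7.60, 7.88 and 7.50 at hCO2, 5.91, 5.66 and 5.95 at SD2, 7.36, 6.49 and 6.44 at SD4, 5.74, 6.03 and 5.24 at LD2 and 4.88, 6.99 and 6.96 at LD4. The values in cat2 were 8.01, 7.86 and 7.67 at hCO2, 7.41, 6.69 and 6.52 at SD2, 7.30, 5.59 and 6.45 at SD4, 5.98, 5.65 and 5.23 at LD2 and 5.41, 6.87 and 7.15 at LD4. At SD2 the 3 cat2 arrays were above the 3 of Col0 but below every array of hCO2, and in the other conditions of air the genotypes overlapped. In AT5G16730 the SD2 arrays read 4.72, 4.33 and 4.50 in Col0 and 6.83, 5.84 and 5.56 in cat2, where at hCO2 they read 6.72, 6.72 and 6.34 in Col0 and 6.69, 6.53 and 6.88 in cat2. By SD4 it read 6.64, 5.45 and 4.91 in Col0 and 6.50, 4.45 and 5.12 in cat2, with wide overlap.

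For the 11 genes as a group, cat2 at SD4 was lower than at hCO2 in all 11 (median −0.66) and Col0 in all 11 (median −0.74). At LD2 both genotypes were lower than at hCO2 in all 11, with medians of −1.10 in Col0 and −1.06 in cat2. At LD4 the medians were −0.47 in Col0 (10 of 11 lower) and −0.65 in cat2 (11 of 11 lower). In each of these conditions of air the medians were below hCO2 in both genotypes, and cat2 at SD2 was the group nearest to hCO2. The SD2, SD4 and hCO2 values took part in the choice of members, and the class was formed after values were seen. The place of cat2 at SD2 in this order is therefore a description. No group had long days at high CO2, so in the LD2 and LD4 values air and day length cannot be told apart.

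Arrays of 1 group also differed together in these genes, as they did in some other classes, though the same counts over all probe sets were not made. In cat2 at SD4, replicate 1 was the highest in 61 of the 73 members without a single gene. The same held in 7 of 8 receptors and kinases. Among the 6 protein turnover members, replicate 1 was the highest in only 3 and the lowest in 2. In Col0 at LD2 it was the highest in all 8 receptors and kinases and in 58 of the 73. For the 11 genes here, replicate 1 was the highest and replicate 3 the lowest of the 3 cat2 arrays of SD2 in all 11. The class medians were 7.41, 6.69 and 6.52. At SD4, replicate 1 was the highest in all 11 in both genotypes, with class medians of 7.29, 6.49 and 6.37 in Col0 and 7.30, 5.59 and 6.45 in cat2, and in cat2 at LD2 it was again the highest in all 11. At LD4, replicate 1 was instead the lowest in all 11 in both genotypes. The class medians there were 4.88, 6.99 and 6.96 in Col0 and 5.41, 6.87 and 7.15 in cat2, so the gap within a genotype was larger than that between the genotypes. The median of all probe sets on the LD4 arrays was 6.18, 6.28 and 6.25 in Col0 and 6.19, 6.25 and 6.27 in cat2, lowest on the same 2 arrays. Its part in the result was not tested.

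**Figure D3:**
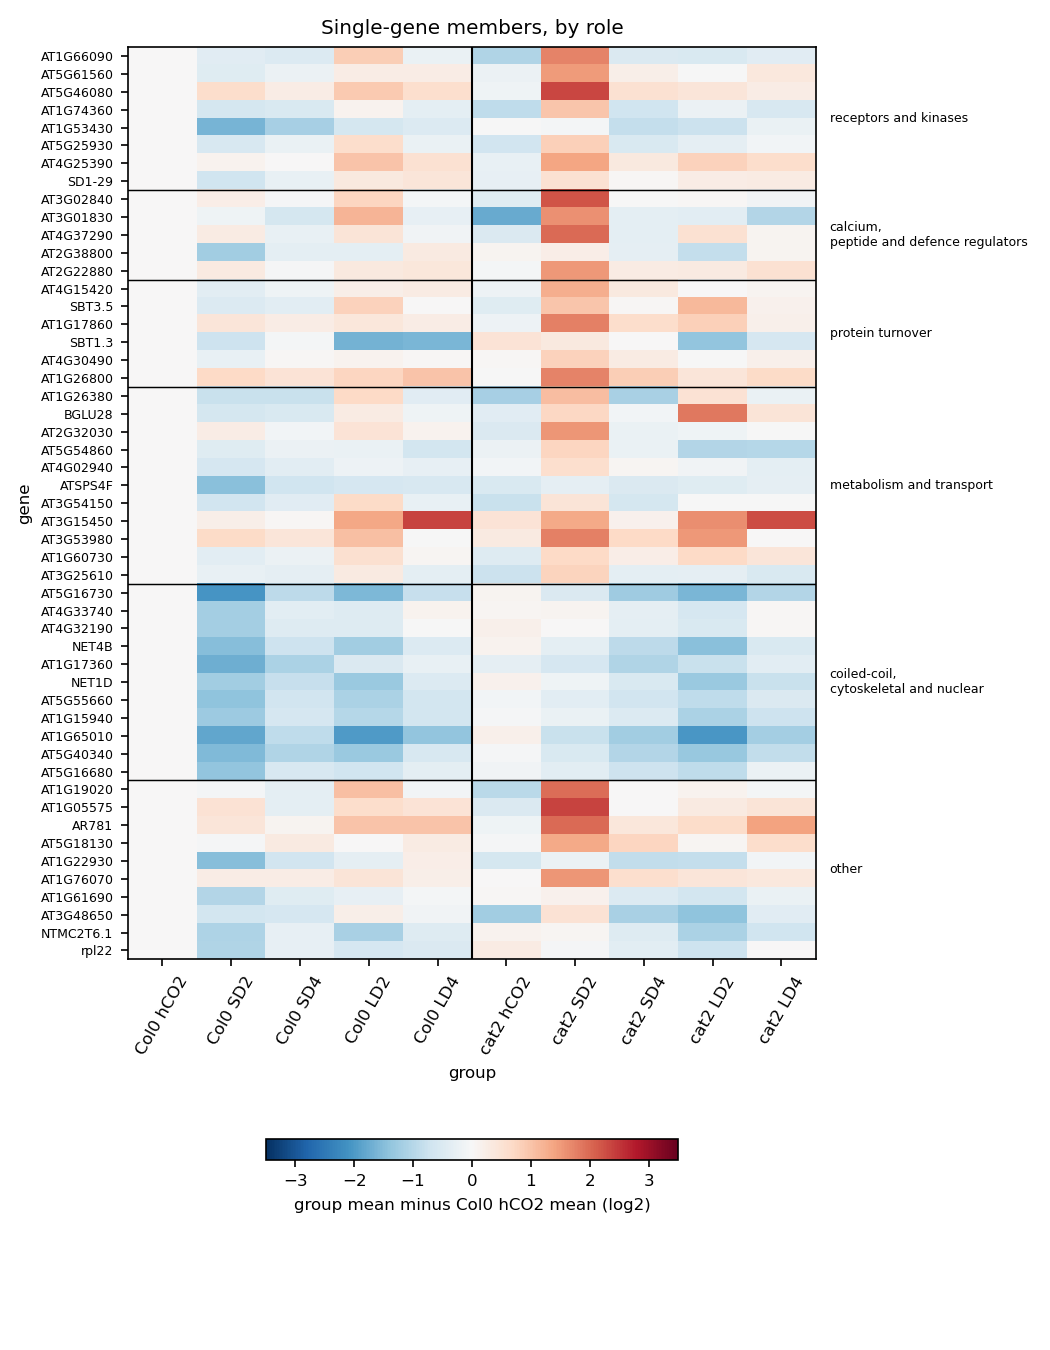
Mean log2 signal of the 51 single-gene members (rows, ordered by role) in each of the 10 groups, as the difference from the Col0 mean at hCO2 (colour scale, red higher and blue lower). The coiled-coil, cytoskeletal and nuclear block is blue in Col0 at SD2 and pale in cat2 at SD2, while most other blocks are red in cat2 at SD2 and pale at SD4.

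A further 10 members have another role or none that could be stated. AT1G19020 and AT1G05575 had the largest d at SD2 among them. In Col0, AT1G19020 read (log2) 8.15, 7.85 and 8.88 at hCO2, 8.60, 8.62 and 7.44 at SD2, 7.67, 9.05 and 7.12 at SD4, 9.82, 9.39 and 8.80 at LD2 and 8.50, 7.59 and 8.48 at LD4. The values in cat2 were 7.08, 7.19 and 7.81 at hCO2, 10.29, 10.19 and 10.25 at SD2, 8.58, 8.20 and 8.11 at SD4, 7.73, 8.66 and 8.84 at LD2 and 8.57, 7.85 and 8.30 at LD4. The 3 cat2 arrays of SD2 lay close together and above all other arrays of AT1G19020. AT1G19020 thus had d of 2.02 at SD2, 0.35 at SD4, −0.93 at LD2 and 0.05 at LD4, each with an SE of 0.41. In Col0, AT1G05575 read (log2) 6.87, 5.67 and 6.63 at hCO2, 7.14, 7.24 and 6.29 at SD2, 5.88, 6.69 and 5.58 at SD4, 7.01, 6.75 and 7.25 at LD2 and 7.35, 6.23 and 7.01 at LD4. In cat2 it read 5.65, 5.51 and 6.46 at hCO2, 8.93, 8.55 and 8.82 at SD2, 6.76, 6.19 and 6.29 at SD4, 6.21, 6.71 and 7.17 at LD2 and 7.13, 6.56 and 6.86 at LD4. Again the SD2 arrays of cat2 were the highest of the gene, while at SD4 and in long days its genotypes overlapped. For AT1G05575, d was 1.87 at SD2, 0.37 at SD4, −0.31 at LD2 and −0.01 at LD4 (SE 0.35 each). AR781, AT5G18130 and AT1G76070 were higher in cat2 at SD2 than at hCO2 by 2.13, 1.38 and 1.52. AT1G22930, AT1G61690, NTMC2T6.1 (a C2-domain protein) and rpl22 (a ribosomal protein encoded in the plastid) were instead lower in Col0, by changes of −1.50, −1.02, −1.08 and −1.04. AT3G48650, annotated in RefSeq as a transcribed pseudogene, completes the 10 and returns among the long-day results.

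The 73 members without a single gene divided into 34 with a gain in cat2, 18 with both changes and 21 with a drop in Col0, where the 51 single-gene members divided into 24, 8 and 19. The largest d at SD2 of all members, 2.61, belonged to 261449_at, singled out after its values were seen. It read 5.72, 5.39 and 4.83 in Col0 and 8.18, 7.49 and 8.10 in cat2 at SD2, and 5.29, 6.14 and 5.14 in Col0 and 5.43, 4.57 and 4.97 in cat2 at SD4. By day 4 its cat2 arrays had no excess over those of Col0. Of the members, 6 probe sets, among them 265221_s_at and 266720_s_at, carry the suffix by which the array's maker marks probes that match more than 1 transcript, so their signal may be shared.

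**Figure D4:**
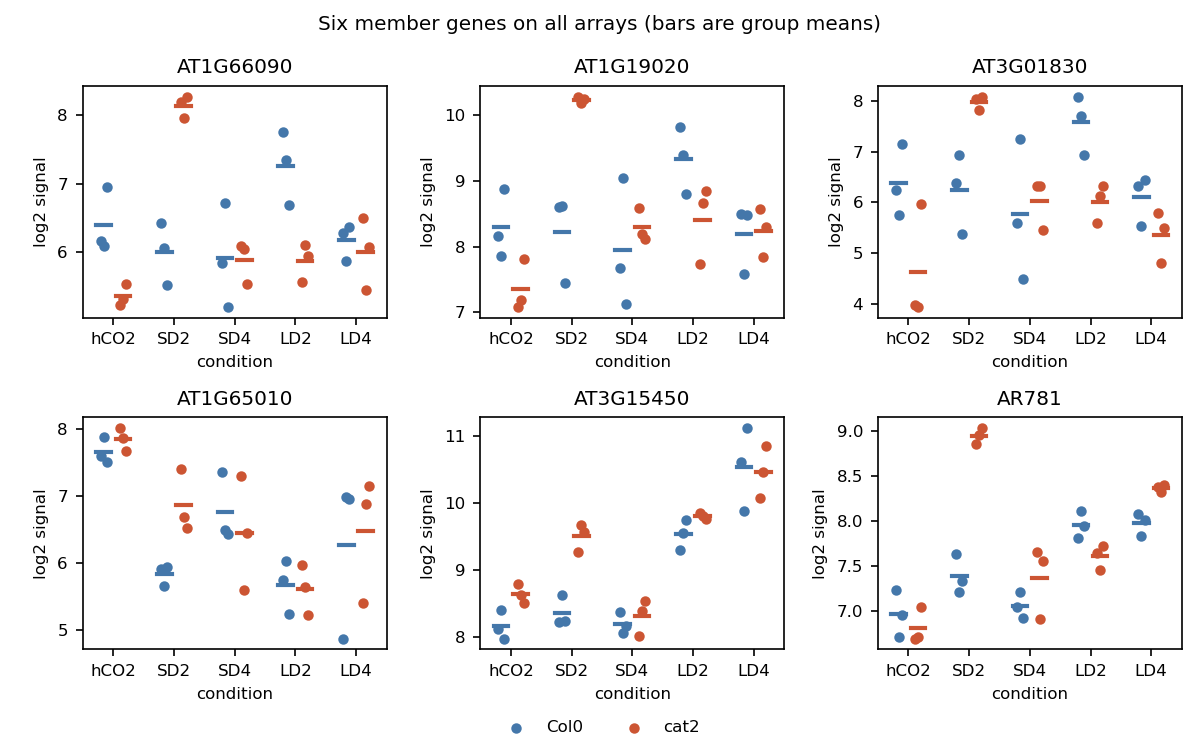
Log2 signal of 6 members on each array (points) with the mean of each group of 3 arrays (bars), by condition, with Col0 in blue and cat2 in orange. AT1G66090, AT1G19020 and AT3G01830 peak in cat2 at SD2, AT1G65010 is instead low in Col0 at SD2, AT3G15450 is highest at LD4 in both genotypes, and AR781 is lower in cat2 at LD2 and higher in cat2 at LD4.

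The long-day arrays took no part in the choice of members, so the same difference between genotypes could be tested there. After 2 days of air in long days, cat2 did not have the excess it had in short days. None of the 124 members was called higher (limma over all 30 arrays, Benjamini-Hochberg adjusted p below 0.05, 0.541% of all probe sets called higher) and 4 were called lower (0.607% of all probe sets), or 3.23% of the members against 1.15% called in either direction over all probe sets. At an unadjusted p below 0.05 there were 30 of 124 members, where 12.3% of all probe sets passed. The median d at LD2 was −0.19, with 95 of 124 members below 0, where the median over all probe sets was 0.00. Without Col0 LD2 replicate 1 the members' median was −0.09. Arrays did not overlap, with cat2 lower, in 29 members or 23.4% (10.3% of all probe sets), and with cat2 higher in 6 or 4.84% (9.71% of all probe sets).

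Those called lower in cat2 at LD2 were AT3G48650, AT1G66090, 259428_at and 251745_at. In Col0, AT3G48650 read (log2) 5.79, 5.90 and 6.47 at hCO2, 5.69, 5.02 and 5.52 at SD2, 5.54, 6.14 and 4.68 at SD4, 6.86, 6.50 and 5.41 at LD2 and 5.85, 5.52 and 6.41 at LD4. In cat2 it read 4.52, 4.76 and 5.27 at hCO2, 6.55, 6.27 and 6.82 at SD2, 5.32, 4.92 and 4.49 at SD4, 4.50, 4.58 and 4.83 at LD2 and 5.23, 5.45 and 6.27 at LD4. The LD2 difference was −1.62 (SE 0.36, adjusted p = 0.0234 in limma), with all cat2 arrays below all Col0 arrays. That is the opposite of the order at SD2 and the same as the order at hCO2. In AT1G66090, whose arrays are given above, the LD2 difference was −1.40 (SE 0.33, adjusted p = 0.0336 in limma), and again no array of one genotype reached the other. At hCO2, a condition used in the choice, d was also below 0 in the members called lower here. It was −1.21 in AT3G48650, −1.04 in AT1G66090, −0.34 in 259428_at and −0.33 in 251745_at.

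The LD2 arrays of 259428_at read 8.16, 7.96 and 7.07 in Col0 and 6.05, 6.60 and 6.81 in cat2, a difference of −1.24 (SE 0.25, adjusted p = 0.0115 in limma). Those of 251745_at read 8.31, 8.14 and 7.91 in Col0 and 7.19, 7.25 and 7.45 in cat2, a difference of −0.83 (SE 0.21, adjusted p = 0.0465 in limma). The 4 calls depended on single arrays, though the share of all probe sets called in the following fits is not given. Without Col0 LD2 replicate 1, Col0 LD2 replicate 2 or cat2 LD2 replicate 1 no member was called, and without cat2 LD2 replicate 3 only 259428_at was. Without cat2 LD2 replicate 2 there were 2 calls, 259428_at and 1 other member that was called higher in cat2. On the LD2 arrays the 25S ribosomal RNA control read 6.44, 7.00 and 6.55 in Col0 and 7.24, 7.40 and 7.18 in cat2, and at SD2 it read 6.74, 7.13 and 6.24 in Col0 and 7.62, 8.09 and 6.96 in cat2. Its part in the members' differences was not tested.

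At LD2 the class medians of d were −0.29 for the receptors and kinases, −0.50 for the calcium, peptide and defence regulators, 0.08 for protein turnover, 0.05 for metabolism and transport and −0.06 for the coiled-coil, cytoskeletal and nuclear genes. Among the first 2 of these classes, AT5G25930 read 8.58, 8.16 and 7.91 in Col0 and 7.10, 7.14 and 7.59 in cat2 at LD2. Its arrays did not overlap, yet the difference of −0.94 (SE 0.31) did not pass (adjusted p = 0.166 in limma). The same held for AT3G01830, with a difference of −1.57 (SE 0.57, adjusted p = 0.217 in limma). The members with cat2 higher without overlap were 265170_at, AT1G17860, 257137_at, AT3G15450, 267559_at and AT3G53980. Of these 265170_at, singled out after its values were seen, read 9.28, 7.33 and 7.71 in Col0 and 10.04, 9.54 and 11.28 in cat2, a difference of 2.18 (SE 0.65) that did not pass (adjusted p = 0.109 in limma).

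After 4 days in long days the genotypes were close in most members. The median d at LD4 was 0.04, with 69 members above 0 and 55 below, beside a median of 0.01 over all probe sets. Its sign depended on single arrays, with −0.11 without Col0 LD4 replicate 1, −0.04 without cat2 LD4 replicate 3 and 0.17 without Col0 LD4 replicate 3. At LD4 1 member was called higher (0.246% of all probe sets) and 1 lower (0.479% of all probe sets), beside 0.725% of all probe sets called in either direction, and 9 of 124 members had an unadjusted p below 0.05 (12.5% of all probe sets). Arrays did not overlap with cat2 higher in 4 members (5.47% of all probe sets) and with cat2 lower in 3 (6.89% of all probe sets). The member called higher was 245866_s_at, which matches several genes. Its LD4 arrays read 7.30, 6.54 and 6.75 in Col0 and 7.74, 7.18 and 7.77 in cat2, which overlap, with a difference of 0.70 (SE 0.16, adjusted p = 0.0404 in limma). The one called lower was 266720_s_at, at 7.10, 7.29 and 7.61 in Col0 and 5.84, 6.03 and 6.12 in cat2, which do not overlap. Its difference was −1.33 (SE 0.30, adjusted p = 0.038 in limma).

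No LD4 call was left without Col0 LD4 replicate 2 or 3, or without cat2 LD4 replicate 1 or 3, and 1 was left without either of the other LD4 arrays. The share of all probe sets called in these fits is not given, so a general loss of calls cannot be told apart. Arrays of LD4 with the same replicate number deviated together (residual correlations of 0.44, 0.45 and 0.22). With the replicate number as a block, 4 members were called at LD4, 3 higher and 1 lower, where 2.74% of all probe sets were called in that fit. In a fit of only the LD4 arrays with that block 6 were called, 4 higher and 2 lower, beside 1.05% of all probe sets. The single-gene members of the groups above showed no call at LD4. SBT1.3 had the largest d of them at LD4, 1.02 (SE 0.40, adjusted p = 0.288 in limma), from 5.68, 6.46 and 6.25 in Col0 and 6.11, 7.52 and 7.80 in cat2. The first cat2 array of SBT1.3 lay inside the range of Col0.

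**Figure D5:**
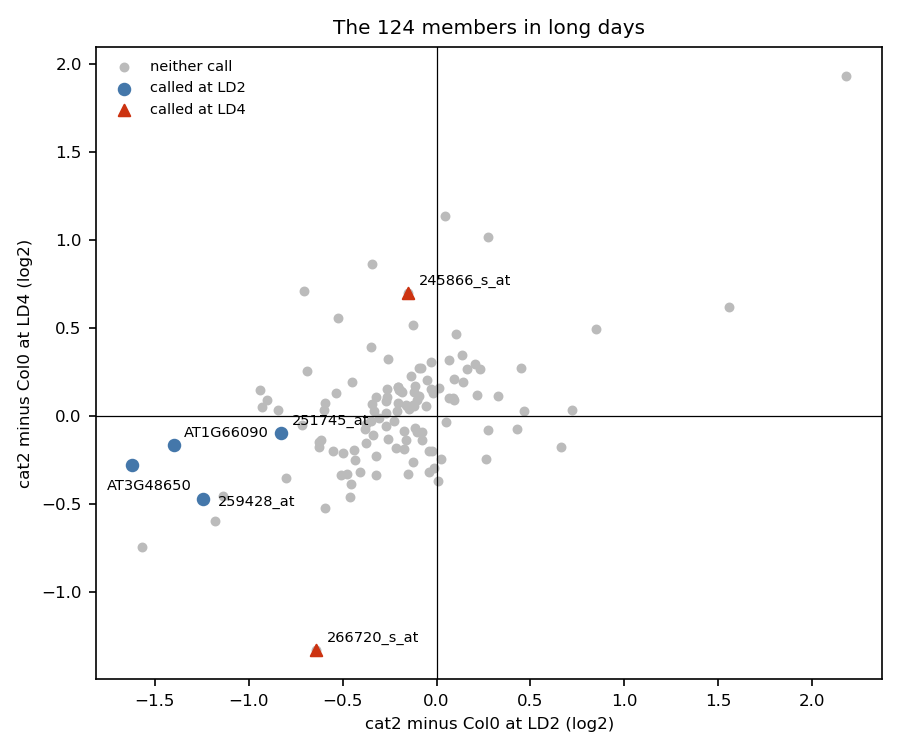
Difference in mean log2 signal, cat2 minus Col0, of each of the 124 members at LD2 (horizontal axis) and at LD4 (vertical axis). Blue circles are the 4 members called at LD2, red triangles the 2 called at LD4 and grey points the others. Most points lie left of 0 at LD2 and around 0 at LD4, and 265170_at stands alone at the upper right.

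From LD2 to LD4 few members were called within a genotype. In Col0, 2 were called higher at LD4 (1.06% of all probe sets) and 3 lower (0.879% of all probe sets, 1.94% in either direction), against 33 of 124 at an unadjusted p below 0.05 (14.8% of all probe sets). The median change was −0.03, and between −0.13 and −0.01 with any 1 array left out. AT3G15450, the sugar starvation transcript, was called higher in Col0. There it read 9.31, 9.56 and 9.74 at LD2 and 10.62, 9.89 and 11.12 at LD4, a change of 1.01 (SE 0.22, adjusted p = 0.0176 in limma) with no overlap. Its cat2 arrays read 9.86, 9.81 and 9.77 at LD2 and 10.08, 10.46 and 10.84 at LD4, also with no overlap. That change of 0.65 did not pass (adjusted p = 0.139 in limma). The other called higher in Col0 was 257137_at (0.97, adjusted p = 0.0307 in limma). Those called lower were 253666_at (−1.89), 261934_at (−1.19) and 245866_s_at (−0.68), with limma adjusted p of 0.0234, 0.0235 and 0.0267. Without Col0 LD2 replicate 1 or 2 none of these calls was made, without Col0 LD4 replicate 2 there was 1 call, and without Col0 LD4 replicate 3 there were 2. For these fits too the share of all probe sets called is not given.

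In cat2, 1 member was called higher at LD4 than at LD2 (0.602% of all probe sets) and 3 lower (1.1% of all probe sets, 1.7% in either direction), against 27 of 124 at an unadjusted p below 0.05 (15.6% of all probe sets). The median change was 0.24, and 0.15 without cat2 LD4 replicate 1. AR781 was called higher. Its cat2 arrays read 7.64, 7.46 and 7.73 at LD2 and 8.38, 8.32 and 8.40 at LD4, a change of 0.76 (SE 0.16, adjusted p = 0.0148 in limma) without overlap. The Col0 arrays of AR781 read 7.82, 8.11 and 7.94 at LD2 and 8.08, 7.84 and 8.01 at LD4, with overlap. AT1G17860, the Kunitz inhibitor, was called lower in cat2 by a change of −0.63 (adjusted p = 0.0151 in limma), from 7.57, 7.38 and 7.71 to 6.97, 6.94 and 6.86. AT3G53980, the lipid transfer protein, was called lower by −1.50 (adjusted p = 0.0427 in limma), from 8.00, 8.67 and 8.02 to 6.67, 6.72 and 6.81. In both genes every LD4 array of cat2 was below every LD2 array. The Col0 arrays of AT3G53980 were lower too, at 7.36, 7.95 and 7.98 at LD2 and 6.66, 6.97 and 6.49 at LD4, also without overlap. That change of −1.06 did not pass (adjusted p = 0.168 in limma). In AT1G17860 the Col0 arrays of LD2 and LD4 overlapped (change −0.13). The last member called lower in cat2 was 265221_s_at (−1.60, adjusted p = 0.00393 in limma). Without cat2 LD4 replicate 2 there was 1 call, and without cat2 LD2 replicate 3 or cat2 LD4 replicate 3 there were 2, again with the share of all probe sets called not given.

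Whether the difference between genotypes itself changed from LD2 to LD4 was tested as an interaction. None of the 124 members was called (0.0615% of all probe sets, 14 in number), 15 members had an unadjusted p below 0.05 (5.72% of all probe sets), and the median was 0.22 beside 0.01 over all probe sets, with 97 members above 0. The median was 0.05 without Col0 LD4 replicate 1, 0.14 without Col0 LD2 replicate 1 and 0.37 without Col0 LD4 replicate 3. A change of the difference between genotypes from LD2 to LD4 is thus not shown for any single member.

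The members were set beside the 218 probe sets that also had d of at least 1 at SD2 and under 0.5 at hCO2 but d of at least 0.5 at SD4. At LD2, 34 of these 218 were called higher in cat2 (15.6%) and none lower, with a median d of 0.19. The members had none called higher and 4 lower (3.23%), beside 0.541% called higher and 0.607% lower over all probe sets. At LD4, 8 of the 218 were called higher (3.67%), against 1 of 124 members (0.806%), beside 0.246% of all probe sets. The difference between the 2 sets was not tested.

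Named gene lists from stress and signalling pathways were counted for context. In this annotation few of their genes have a probe set of their own. Of 21 heat shock proteins and chaperones 5 were measured, 4 were called higher in cat2 at SD2 (6.62% of all probe sets), 3 at SD4 (1.53%), 1 at LD2 and none at LD4, and none is a member. HOP3, a co-chaperone of HSP70 and HSP90, was the one that passed at SD2 (2.98) and not at SD4 (0.82, adjusted p = 0.133 in limma), and its SD4 value is too high for membership. Of 18 genes of touch and calcium signalling 7 were measured, and 1 of them, AT3G01830, is a member, so its SD2 value is a description. The others, CML23, CML39, CML41, CML42, CML43 and CML45, had differences from −0.63 to 0.15 at SD2 and none was called. UPOX, the 1 measured gene of 7 in mitochondrial stress, was called higher at SD2 (1.31) and SD4 (1.00). PUB23 was the 1 called of 5 measured ubiquitin ligases, at SD2 (0.48). TINY2, 1 of 2 measured ERF and DREB factors, was called lower at SD2 (−0.68; 7.56% of all probe sets called lower). DTX3, 1 of 2 measured transporters of the ABC and MATE type, was called higher at LD2 (1.68). JMT and SAG101, the measured genes of the jasmonate list and of the salicylic acid and immune list, were not called, and none of the 21 heat shock factors was measured alone.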

How the data were processed

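The authors deposited log2 signals of 22810 probe sets on 30 arrays, computed by RMA (affy package), per the submitters' processing notes, which list no versions. No further normalization was applied, and the number of arrays limits the precision. The 64 control probe sets were left out, and 22746 were tested. In the annotation used here 13513 of these have 1 gene, 503 several, and 8730 are not listed. The treatment label of the Col0 hCO2 arrays gives a CO2 level that differs from the growth protocol, whose 3000 ppm was used.

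A linear model with 10 group means was fitted to all 30 arrays in limma 3.58.1 (R 4.3.3), with moderated tests of cat2 against Col0 and of LD4 against LD2. Calls were made at a Benjamini-Hochberg adjusted p below 0.05, adjusted over 22746 probe sets. The fit was tested on simulated data. SE is the model's standard error. Members at SD2, SD4 and hCO2 were described and not tested. The members, lists and roles were chosen with earlier results of these data known. Named in full were the 12 single-gene members with the largest difference at SD2 and single-gene members called at LD2 or LD4. Also named were members nearest the thresholds, members called between LD4 and LD2, list members, and single-gene members by role. Arrays of the same group correlated at 0.9845 to 0.9965. Residuals of arrays with the same replicate number correlated above 0.1 for all 3 numbers at LD4 and not in the other long-day comparisons, and the labels do not say what such arrays share. Python 3.11.15, pandas 2.3.3 and matplotlib 3.10.9 were used. A planned count of promoter motifs was not run.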

Additional observations from a re-analysis of the deposited data

Results flagged for a closer look

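AR781 had opposite differences between the genotypes after 2 and 4 days of long days. At LD2 all 3 cat2 arrays were below all 3 Col0 arrays, a difference of −0.35 (SE 0.16, limma adjusted p = 0.357). At LD4 all 3 were above, a difference of 0.39 (limma adjusted p = 0.299). The change of the difference, tested as an interaction, was 0.74 and did not pass over all probe sets (limma adjusted p = 0.433).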

How the results depend on the processing

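Every result of the members in long days rests on 3 arrays a group, and the counts of calls depend on the fit. With the replicate number as a block within each condition, 9 members were called at LD2 (3 higher, 6 lower), 4 at LD4, 9 for LD4 against LD2 in Col0 and 15 in cat2, where 3.56%, 2.74%, 4.21% and 5.51% of all probe sets were called. In fits of only the arrays compared these counts were 1, 1, 0 and 1 (0.923%, 0.0967%, 0.114% and 0.0747% of all probe sets), and with the block added 0, 6, 0 and 2 (0.664%, 1.05%, 0.0528% and 0.167%). Centring each array on its median left 1 call at LD4 (0.523% of all probe sets). Leaving out 1 array at a time gave 0 to 5 calls at LD2, 0 to 1 at LD4, 0 to 7 in Col0 and 1 to 3 in cat2. For fits with 1 array left out, here and above, the share of all probe sets called is not given. A general change in calls and a change in these members therefore cannot be told apart from these counts. The cause of these changes in the counts was not tested. In the interaction no member was called under any alternative run, and its median lay between 0.05 (0.0473, without Col0 LD4 replicate 1) and 0.37 with 1 array left out. The median difference at LD2 stayed below 0 with any 1 array left out (−0.26 to −0.09), and at LD4 it ranged from −0.11 to 0.17. Of the 15 calls of single members in long days, the results refitted one by one, none changed sign under any alternative run. The block fits and the fits of only the arrays compared keep the same group means, so there the sign could not change. Each call was weaker in some runs. For 251745_at at LD2 it was weaker in 8 and the same in 5. For 265221_s_at in cat2, the steadiest, it was weaker in 2 and the same in 11. Membership fell to 33 with d at SD2 of at least 1.5 and to 64 with d at SD4 and hCO2 under 0.25, and was 113 after a further quantile normalization and 97 after median centring. Leaving out 1 array gave 94 to 195, and without cat2 SD2 replicate 3 the count was 195, 122 of them members. Without Col0 hCO2 replicate 2, chosen as an alternative after seeing the data, 2 members showed neither change from hCO2 to SD2, against 0 with all arrays.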
